A study of Saccharomyces cerevisiae with 26 samples.

Results

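The genes described here encode the machinery that carries proteins from the cytosol into mitochondria in the budding yeast Saccharomyces cerevisiae. They were chosen by name: every gene symbol made of TIM, TOM, PAM or SAM and a number, without SAM1 to SAM4, which belong to S-adenosylmethionine metabolism, plus MGE1, SSC1, MIA40, ERV1, MAS1, MAS2, OCT1, MDJ1, HSP60 and HSP10. The rule found 40 genes among the 5656 genes that had a probe set of their own on the array. Of these, 37 are parts of the import pathway: 11 of the outer membrane, 7 of the intermembrane space, 7 of the inner membrane, 7 of the import motor and 5 that process or fold the imported protein. The 7 counted with the motor include MDJ1, whose product is a matrix J protein of Ssc1 that acts in folding. The other 3, TIM11, TOM1 and PAM1, carry a matching symbol but have other functions and are given separately. All 40 passed the filter on low signals, so no member was left out of the tests.

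Most mitochondrial proteins are made in the cytosol and cross the outer membrane through the TOM complex, in which Tom20, Tom22 and Tom70 are receptors, Tom40 forms the channel and Tom5, Tom6 and Tom7 are small subunits. From there the SAM complex (Sam50, Sam35, Sam37) inserts barrel-shaped proteins into the outer membrane, the oxidoreductase Mia40 and its partner Erv1 trap small proteins in the intermembrane space by forming disulfide bonds, and the small Tim proteins escort membrane proteins through that space. The TIM23 complex (Tim17, Tim23, Tim50, Tim21) takes proteins with a presequence across the inner membrane, and the TIM22 complex (Tim22, Tim18, Tim54) inserts carrier proteins into it. The motor, built around the Hsp70 Ssc1 with Tim44, Pam16, Pam17, Pam18 and the nucleotide exchange factor Mge1, pulls the chain into the matrix, where the Mas1-Mas2 peptidase and Oct1 trim it and the Hsp60-Hsp10 chaperonin folds it. In yeast, mitochondrial content is known to be high during respiratory growth under glucose limitation and to fall when glucose is in excess.

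RNA was measured on Affymetrix arrays in 2 strains. The reference strain was CENPK113.7D, with the genotype MATa MAL2-8c SUC2. The other was a strain with the same 3 markers that also carried a leu2 allele, named by the numbers 3 and 112, and sfp1Δ::KlLEU2. SFP1 encodes a transcription factor known for its control of ribosome biogenesis genes. Its deletion thus came with a change at LEU2, and the 2 cannot be told apart. Both strains grew at 30 °C and pH 5.0 in aerobic chemostats limited by glucose, at a dilution rate of 0.10 per hour. Nitrogen sparging began 2 min before the medium pump was stopped and a pulse of 200 mM glucose was given, so excess glucose, loss of oxygen and the stopped feed cannot be told apart as the source of any later change. Each strain had 3 independent cultures sampled at steady state and 2 at each of 5, 10, 30, 60 and 120 min after the pulse, giving 12 groups, 26 arrays and 13 arrays per strain.

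SFP1 signal lay between 0.2 and 2.9 on every deletion array and between 97.2 and 205.1 on the reference arrays, as the strain labels state. The a-type genes MFA1 and MFA2 were at 816.1 or higher on every array. MF(ALPHA)2 was at 10.1 or lower on every array, while MF(ALPHA)1 reached 99.1 at most on the reference arrays and 126.6 to 796.7 on the deletion arrays. Replicate arrays correlated at r = 0.974 to 0.994 across genes, except those of the deletion strain at 10 min (r = 0.824) and 30 min (r = 0.816). There, replicate 1 at 10 min correlated best with replicate 2 at 30 min (r = 0.98), and the glucose-induced transporter gene HXT1 was at 235.7 and 351.2 on those 2 arrays against 1689.9 and 2172.2 on the other 2. The 4 arrays were therefore tested as 1 mean, which does not depend on which of them were 10 or 30 min, and their values are given singly. On 4 deletion arrays the actin control gave a ratio of 5 prime or middle signal to 3 prime signal under 0.3: replicate 1 at steady state, replicate 2 at 10 min, replicate 1 at 30 min and replicate 1 at 60 min. Counts and several single values are also given without these 4 arrays. Of these 4, the 2 labelled 10 or 30 min are the pair of high HXT1 signal. Without them, the values for 10 and 30 min rest on the 2 deletion arrays of low HXT1 signal. In such values the actin ratio and the time after the pulse cannot be told apart, and they depend on the labels.

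A gene was called higher or lower when its Benjamini-Hochberg adjusted p in the limma fit over all 5369 genes tested was under 0.05. The authors' signals had been scaled so that the trimmed mean of every array was 149.9 to 150.0. The median signal still fell from 43.7 to 45.9 at reference steady state to 24.1 and 22.7 at 30 min. On the log2 scale the median gene thus fell by 0.53 at 30 min as deposited, but stood at 0.13 after quantile normalization and at 0.34 after the arrays were brought to a common median. Each count is therefore given as deposited and then as the number that passed in the same direction under all 3 scalings. Because the scale is relative, less of a transcript and more of all other RNA cannot be told apart.

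In the reference strain no import gene was called at 5 min, and most were lower from 30 min on as deposited. None of the 37 was called at 5 min by limma, with 5 at an unadjusted p under 0.05 and 0 to 1 called over the alternatives tried, where 2.96% of all genes were called higher and 6.69% lower (2.76% and 3.33% under all 3 scalings). At 5 min 12 of the 37 had arrays that did not overlap with steady state. The share of all genes without overlap was not computed, so this count is not read as a change of the members. SAM37 was at 40.6 and 55.2 against 69.1 to 76.9 (log2 -0.62, adjusted p = 0.11), and OCT1 at 38.7 and 34.9 against 49.6 to 53.8 (log2 -0.50, adjusted p = 0.087). The smallest changes of each role group at 5 min were those of TOM6, TIM10, TIM54, TIM44 and HSP60, between -0.12 and 0.02 on the log2 scale. At 10 min 2 were higher and 9 lower, against 15.1% higher and 31.6% lower among all genes, and 1 and 5 under all 3 scalings, against 14.5% and 20.3%. A common median gave 2 higher and 5 lower at that time, against 20.8% and 23.7%. At 30 min 27 were lower and 1 higher, against 53% lower and 22.6% higher among all genes, and under all 3 scalings 13 were lower and 1 higher, against 29.2% and 21.7%. At 60 min 25 were lower and none higher (limma, with none at an unadjusted p under 0.05 either), against 43.8% and 22%, and 16 were lower under all 3 scalings, against 26.2%. At 120 min 21 were lower and none higher, again with none at an unadjusted p under 0.05, against 37.5% and 19%, and 10 were lower under all 3 scalings, against 21.9%.

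The member count at 30 min turned on the scaling more than at any other time. With quantile normalization 22 members were lower and 6 higher, against 33.7% and 40.4% of all genes. With a common median 13 were lower and 13 higher, or 35.1% each, against 30.5% and 48.1%, so the share lower was then close to that of all genes. At 60 min the counts were 17 lower and 5 higher with quantile normalization, against 29.1% and 40.5%, and 17 and 9 with a common median, against 28% and 46.1%. At 120 min they were 12 lower and 4 higher, against 24.1% and 36.9%, and 11 and 9, against 23.2% and 41.2%. The median change of the 37 at 30 min was -0.88 as deposited, -0.54 with quantile normalization and -0.01 with a common median, in each case below the median of all genes under that scaling. A common median shifts all genes of an array together, so it keeps the order of the members by construction. In the plot of the 3 scalings MIA40, SAM50 and OCT1 were below 0 under each, and PAM18 and TIM12 above 0.

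**Figure D1:**
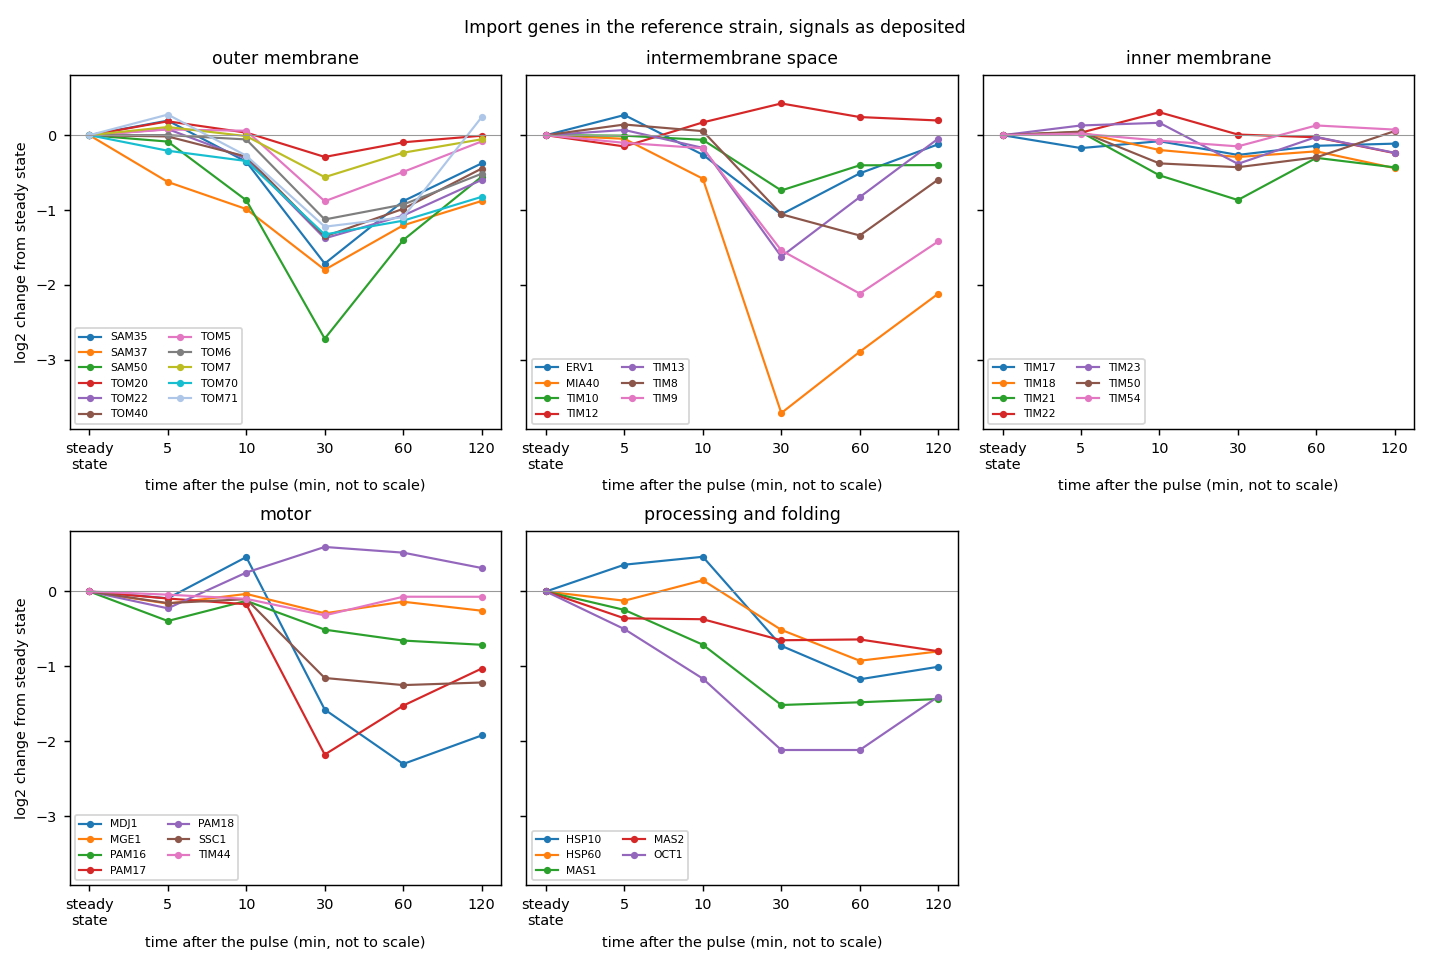
Log2 change from steady state (vertical axis) against minutes after the glucose pulse (horizontal axis) for the 37 import genes of the reference strain, 1 line a gene and 1 panel a role group, on the deposited scale. MIA40 reached -3.71 and SAM50 -2.72 at 30 min, while the inner membrane genes lay between -0.87 and 0.01.

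**Figure D2:**
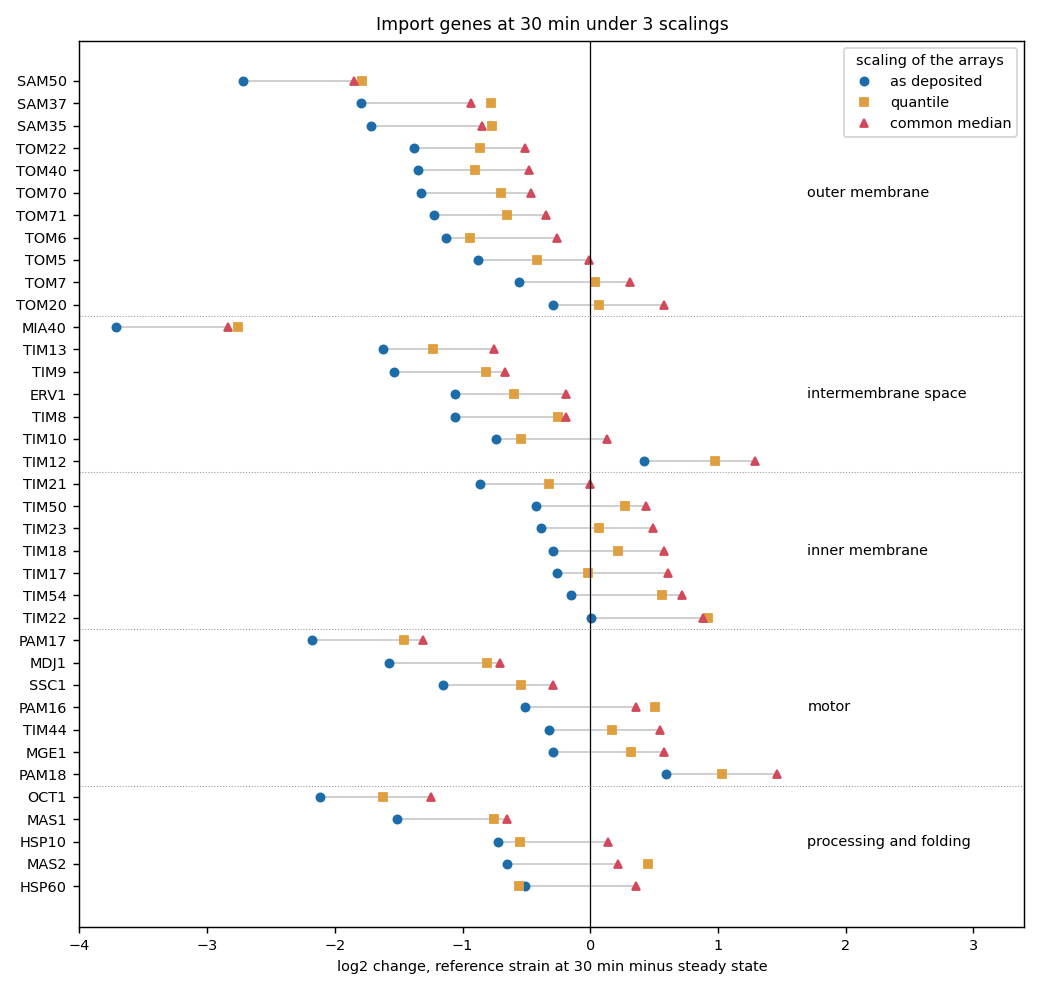
Log2 change at 30 min in the reference strain (horizontal axis) for each of the 37 import genes, grouped by role, as deposited (circles), after quantile normalization (squares) and with a common median (triangles). The 3 marks of MIA40, SAM50, PAM17 and OCT1 lie below 0, and those of TIM23 and MGE1 lie on both sides of it.

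As deposited, the outer membrane genes fell together, and they were the group that moved back most by 120 min. Of the 11, 10 were lower at 30 min, against 53% of all genes, and 6 of them under all 3 scalings, against 29.2%. Their median change was -1.33 as deposited, -0.77 with quantile normalization and -0.46 with a common median. Between 30 and 120 min their median rose by 0.80, above the medians of the other 4 role groups, which lay between -0.15 and 0.46. TOM20, which encodes a receptor for presequences, was the only 1 of the 11 not called lower at 30 min as deposited. It was at 315.0, 290.3 and 321.3 at steady state and 234.9 and 270.9 at 30 min, a log2 change of -0.29. Its sign turned with the scaling (0.58, adjusted p = 8.2e-05, with a common median).

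TOM40, the gene of the import channel, had signals of 357.2, 375.8 and 345.7 at steady state, 311.7 and 278.9 at 10 min, 147.2 and 134.6 at 30 min, 185.6 and 177.9 at 60 min and 261.1 and 266.5 at 120 min. Every array from 10 min on lay below the 3 steady-state arrays. TOM40 was 2.55-fold lower at 30 min (log2 -1.35 ± 0.10 SE, adjusted p = 1.3e-09) and 1.98-fold lower at 60 min (adjusted p = 1.2e-07), both under all 3 scalings. Its 1.36-fold lower level at 120 min was called as deposited only (adjusted p = 0.001), with a log2 change of 0.00 under a common median. The receptor genes TOM70 and TOM22 were 2.51-fold and 2.60-fold lower at 30 min (adjusted p = 1.2e-07 and 3.6e-09), and TOM70 was still 1.77-fold lower at 120 min under all 3 scalings (adjusted p = 6.6e-05).

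SAM50, which encodes the barrel protein of the SAM complex, changed most in this group. Its signal was 133.0, 167.8 and 130.3 at steady state, 71.7 and 85.1 at 10 min, 22.2 and 21.2 at 30 min, 51.1 and 57.1 at 60 min and 89.7 and 105.2 at 120 min. The steady-state arrays overlapped with no later array except those of 5 min (124.2 and 145.7). The gene was 1.83-fold lower at 10 min (adjusted p = 0.0013), 6.58-fold lower at 30 min (log2 -2.72 ± 0.19 SE, adjusted p = 7.3e-10) and 2.64-fold lower at 60 min (adjusted p = 4.8e-06), each under all 3 scalings. The other SAM genes went the same way at 30 min, SAM37 by 3.48-fold (adjusted p = 1.8e-06) and SAM35 by 3.28-fold (adjusted p = 2.6e-07), and SAM37 was already lower at 10 min, with 33.1 and 41.0 against 69.1, 76.9 and 73.2 (adjusted p = 0.0021).

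The small TOM subunits moved less. TOM6 was 2.18-fold lower at 30 min and TOM5 1.84-fold, neither under all 3 scalings, and the sign of TOM7 turned with the scaling (-0.56 as deposited, 0.04 and 0.31). TOM71, a close relative of TOM70, was under the floor of 12 on both arrays at 30 min (10.4 and 8.3) against 33.5, 25.1 and 26.1 at steady state. It was therefore at least 2.33-fold lower (adjusted p = 6.6e-06), a call lost with a common median (adjusted p = 0.065).

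The intermembrane space group held both the import gene with the largest fall at 30 min and the only one called higher then. Of its 7 genes 6 were lower at 30 min, against 53% of all genes, and 3 of them under all 3 scalings, against 29.2%. The median change was -1.06 as deposited, -0.6 with quantile normalization and -0.19 with a common median. MIA40, whose product oxidizes incoming small proteins, had signals of 190.3, 219.2 and 198.6 at steady state, 121.4 and 150.7 at 10 min, 15.8 and 15.1 at 30 min, 28.0 and 26.5 at 60 min and 36.3 and 59.9 at 120 min. All arrays from 10 min on lay below steady state, and those at 30 min lay just above the floor. It was 13.1-fold lower at 30 min (log2 -3.71 ± 0.19 SE, adjusted p = 9.7e-12), 7.43-fold at 60 min (adjusted p = 3.6e-10) and 4.34-fold at 120 min (adjusted p = 3.9e-08), each under all 3 scalings. ERV1, whose product reoxidizes Mia40, was 2.08-fold lower at 30 min as deposited (adjusted p = 1.1e-07), with a log2 change of -0.19 (adjusted p = 0.18) under a common median.

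The small Tim chaperone genes differed in time. TIM9 had signals of 196.5, 169.9 and 201.6 at steady state, 65.3 and 64.7 at 30 min, 40.7 and 46.6 at 60 min and 66.8 and 74.6 at 120 min, so its lowest arrays were those of 60 min. It was 4.34-fold lower at 60 min (log2 -2.12 ± 0.17 SE, adjusted p = 8.3e-09) and 2.67-fold at 120 min (adjusted p = 2.1e-06), under all 3 scalings. TIM13 instead had its lowest arrays at 30 min, at 150.1 and 203.8 against 540.4, 510.0 and 565.9 at steady state, and stood at 504.0 and 539.2 at 120 min. It was 3.08-fold lower at 30 min (adjusted p = 1.9e-08), and at 120 min its arrays overlapped with steady state. The sign of TIM10, the partner of Tim9, turned with the scaling at 30 min (-0.74 as deposited, 0.13 with a common median). TIM12, whose product sits with the TIM22 complex, was at 103.6, 107.9 and 119.8 at steady state and at 135.5 and 161.4 at 30 min. It was 1.34-fold higher (log2 0.42 ± 0.17 SE, adjusted p = 0.036), and the call ended without any 1 of 3 arrays: replicate 1 or 2 at steady state or replicate 2 at 30 min.

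The inner membrane translocase genes had the median nearest to 0 at 30 min as deposited, but not under the other scalings. Of the 7, 2 were lower as deposited, against 53% of all genes: TIM21 by 1.82-fold (adjusted p = 5.1e-06) and TIM23 by 1.30-fold (adjusted p = 0.041). None was lower under all 3 scalings, against 29.2%. The median change of the 7 was -0.29 as deposited, 0.22 with quantile normalization and 0.58 with a common median. TIM23, the gene of the channel subunit, had signals of 222.6, 261.5 and 251.6 at steady state, 166.3 and 211.7 at 30 min, 228.4 and 253.6 at 60 min and 188.9 and 228.6 at 120 min. The 60 min arrays lay within the steady-state range, and the log2 change at 30 min was -0.38 as deposited, 0.07 with quantile normalization and 0.49 with a common median. TIM21, whose product binds the TOM complex from the inner side, was lower already at 10 min (163.5 and 145.4 against 230.1, 231.1 and 210.3), by 1.45-fold and under all 3 scalings (adjusted p = 0.0017). TIM22 and TIM54 were not called in any of the 15 comparisons on the deposited scale. TIM22 signals were 53.1, 58.7 and 57.5 at steady state and 61.4 and 52.4 at 30 min, a log2 change of 0.01 ± 0.25 SE. Quantile normalization put TIM22 at 0.92 (adjusted p = 0.0084) and TIM54 at 0.56 (adjusted p = 0.001) at 30 min, and with a common median 6 of the 7 genes, all but TIM21, were called higher, at 0.44 to 0.88. Whether these genes rose or stayed level relative to other RNA thus turned on the scaling.

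Of the 7 motor genes, 4 were lower at 30 min, 2 of them under all 3 scalings. These shares are close to the 53% and 29.2% of all genes. At 60 and 120 min 4 were lower, against 43.8% and 37.5% of all genes, 3 of them under all 3 scalings, against 26.2% and 21.9%. MDJ1, whose product acts in folding, was among those lower under all 3 scalings at 30, 60 and 120 min. PAM17, which helps to join Pam16 and Pam18 to the TIM23 complex, had signals of 259.8, 259.6 and 270.7 at steady state, 241.8 and 226.4 at 10 min, 47.8 and 70.8 at 30 min, 88.1 and 95.0 at 60 min and 131.4 and 126.6 at 120 min. Its arrays at 30, 60 and 120 min formed 3 separate ranges, all below steady state. It was 4.53-fold lower at 30 min (log2 -2.18 ± 0.15 SE, adjusted p = 4.6e-10) and 2.04-fold lower at 120 min (adjusted p = 1.3e-05), under all 3 scalings.

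MDJ1, the gene of the matrix J protein that works with Ssc1, first rose and then fell. Its signals were 151.1, 164.8 and 165.1 at steady state, 227.9 and 213.1 at 10 min, 59.2 and 48.7 at 30 min, 26.3 and 40.0 at 60 min and 41.4 and 43.1 at 120 min. The 10 min arrays lay above every steady-state array and all later ones far below. The rise at 10 min was 1.38-fold (log2 0.46 ± 0.17 SE, adjusted p = 0.038) and was called under all 3 scalings, but not once any 1 of the 5 arrays behind it was left out. The fall was 2.98-fold at 30 min (adjusted p = 2.5e-07), 4.94-fold at 60 min (log2 -2.30 ± 0.17 SE, adjusted p = 2.4e-09) and 3.79-fold at 120 min (adjusted p = 4.4e-08), each under all 3 scalings. SSC1, the Hsp70 at the centre of the motor, had signals of 195.2, 263.6 and 197.8 at steady state, 102.2 and 92.6 at 30 min, 91.6 and 90.6 at 60 min and 90.4 and 96.3 at 120 min. It was 2.38-fold lower at 60 min (adjusted p = 7.8e-07) and 2.32-fold at 120 min (adjusted p = 1.7e-06) under all 3 scalings.

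The other motor genes changed less or not beyond the spread. MGE1 was at 119.9, 129.8 and 121.3 at steady state and between 98.8 and 120.9 on all later reference arrays, and it was not called in any comparison as deposited, though 2 of the 3 scalings called it higher. Quantile normalization put it at 0.32 at 30 min and 0.33 at 60 min (adjusted p = 0.016 for each), and a common median at 0.58 (adjusted p = 0.00021) and 0.45 (adjusted p = 0.0022). TIM44, which docks the motor at the channel, was at 200.6, 168.1 and 201.7 at steady state and 165.0 and 139.8 at 30 min (log2 -0.32, not called, and 0.55 with a common median). PAM18, the gene of the motor's J protein, was at 128.7, 162.4 and 145.4 at steady state and 260.1 and 184.0 at 30 min. Both 30 min arrays were higher, by 0.59 on the log2 scale, and the adjusted p of 0.14 missed the threshold.

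As deposited, the processing and folding genes were lower at every time from 30 min. All 5 were lower at 30, 60 and 120 min, against 53%, 43.8% and 37.5% of all genes. Under all 3 scalings 2, 4 and 4 were lower, against 29.2%, 26.2% and 21.9%. Their median change at 30 min was -0.73 as deposited, -0.56 with quantile normalization and 0.14 with a common median. MAS1, a subunit of the presequence peptidase, had signals of 143.1, 160.0 and 168.5 at steady state, 90.5 and 101.4 at 10 min, 52.0 and 57.8 at 30 min, 52.6 and 60.1 at 60 min and 52.7 and 63.7 at 120 min. The last 3 time points covered one narrow range. It was 1.64-fold lower at 10 min (adjusted p = 0.00086), 2.86-fold at 30 min (log2 -1.52 ± 0.15 SE, adjusted p = 6e-08) and 2.71-fold at 120 min (adjusted p = 2.8e-07), each under all 3 scalings. MAS2, the other subunit, had signals of 18.4 to 45.3 on the reference arrays, close to the floor, and its sign turned with the scaling at 30 min (-0.65, 0.45 and 0.22).

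OCT1, which encodes a second peptidase, had signals of 49.6, 52.9 and 53.8 at steady state, 24.1 and 22.4 at 10 min, 7.8 and 3.4 at 30 min, 9.0 and 11.2 at 60 min and 25.8 and 15 at 120 min. The arrays at 30 and 60 min were all under the floor. It was 2.24-fold lower at 10 min (log2 -1.16 ± 0.18 SE, adjusted p = 4.5e-05) and at least 4.34-fold lower at both 30 and 60 min (adjusted p = 7.1e-09 and 1e-08). HSP10, a chaperonin gene, was at 852.9, 652.3 and 807.2 at steady state, 1033.1 and 1079.4 at 10 min, 388.3 and 552.3 at 30 min, 344.4 and 335.0 at 60 min and 368.4 and 394.8 at 120 min. It was 1.38-fold higher at 10 min (adjusted p = 0.012), lost with quantile normalization (adjusted p = 0.063), and 2.25-fold lower at 60 min (adjusted p = 1.1e-06) and 2.01-fold at 120 min (adjusted p = 1e-05) under all 3 scalings. HSP60 was 1.90-fold lower at 60 min (adjusted p = 3.8e-06) and 1.74-fold at 120 min (adjusted p = 3e-05) under all 3 scalings, while its sign at 30 min turned from -0.51 as deposited to 0.36 with a common median.

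Between 30 and 120 min 15 members rose and none fell in the reference strain by limma, with 1 lower at an unadjusted p under 0.05, against 36.1% of all genes higher and 17.3% lower. Under all 3 scalings 10 rose, against 21.7%, and none fell, against 16.2%. With quantile normalization 12 rose and 3 fell, against 27.2% and 26.7%, and with a common median 11 rose and 10 fell, against 22.8% and 36.4%. The 10 were TOM5, TOM22, TOM40, TOM71, SAM35 and SAM50 of the outer membrane, MIA40, ERV1 and TIM13 of the intermembrane space, and PAM17 of the motor. SAM50 rose 4.48-fold (log2 2.16 ± 0.21 SE, adjusted p = 2e-07), MIA40 3.02-fold (adjusted p = 5.4e-06), TIM13 2.98-fold (adjusted p = 3.5e-07) and TOM71, from under the floor, at least 2.76-fold (adjusted p = 6.3e-06). This comparison shares its 30 min arrays with the fall described above, so the rise is not independent of it. Lower at 30, 60 and 120 min under all 3 scalings were 7 members (MAS1, MDJ1, MIA40, OCT1, PAM17, TIM9 and TOM70), or 18.9%, close to the 17.2% of all genes. Another 6, SAM35, SAM37, SAM50, TIM13, TOM22 and TOM40, were lower at 30 min but not at 120 min by that rule, against 11.3%.

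**Figure D3:**
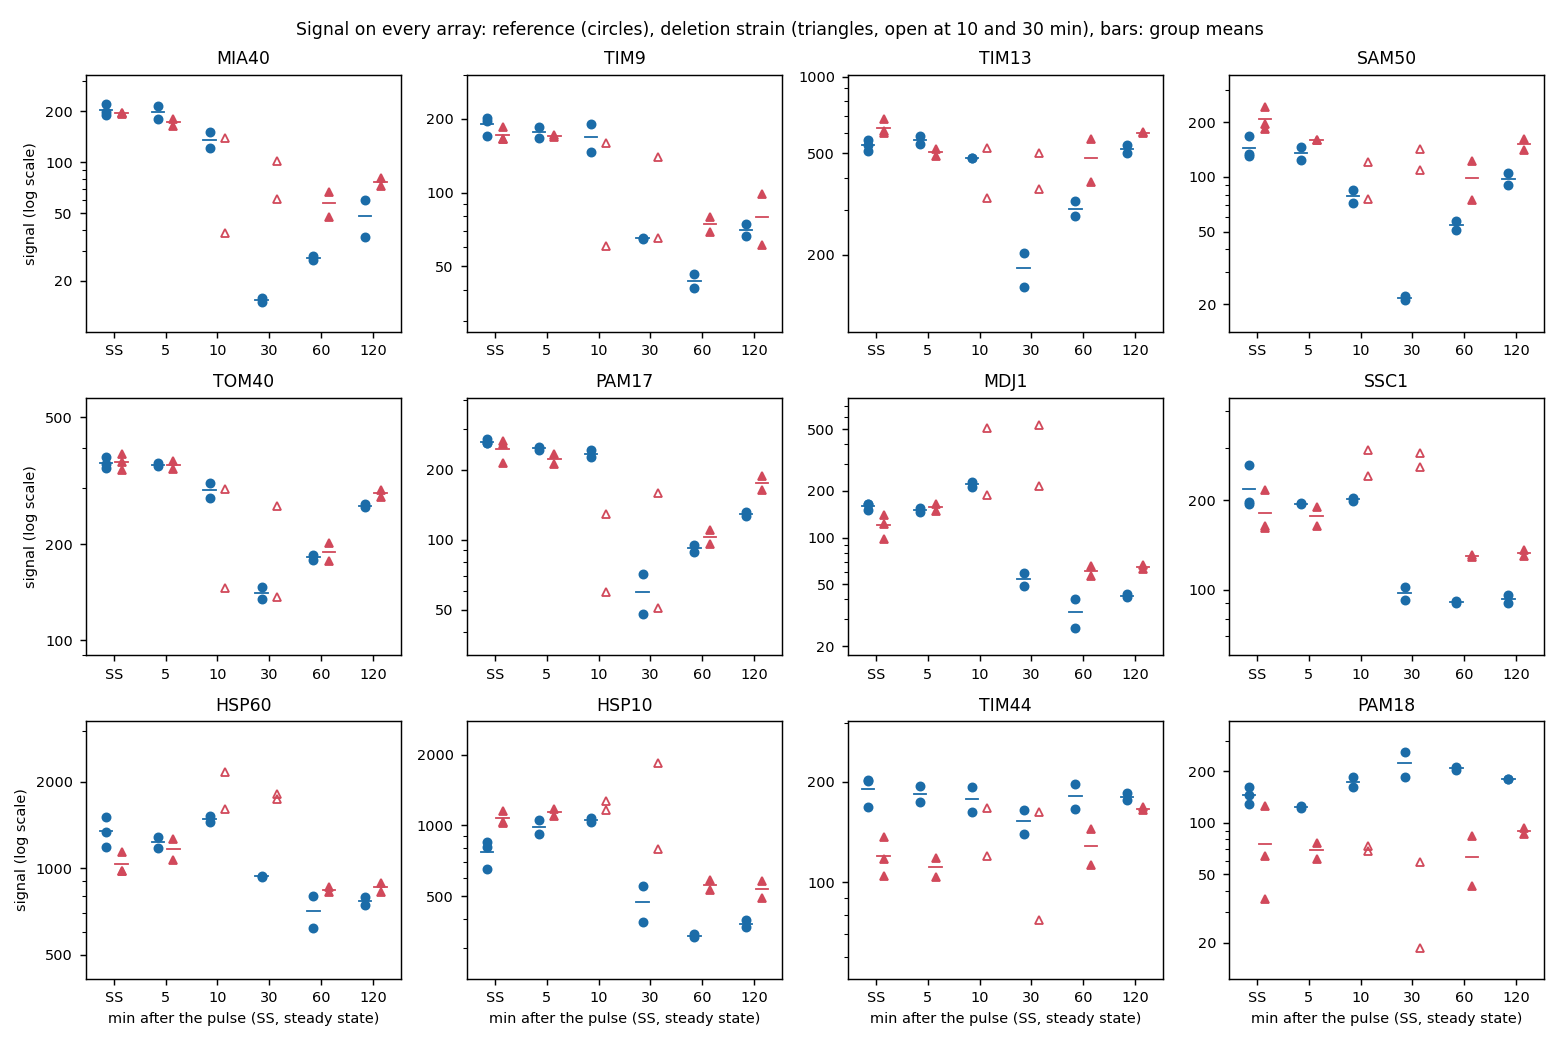
Signal of 12 import genes on every array (vertical log axis) against time after the pulse (horizontal axis, with steady state at the left). Circles are reference arrays, triangles deletion arrays, open where labelled 10 or 30 min, and bars are group means, with none for the open triangles. Reference MIA40 falls from between 190.3 and 219.2 to 15.8 and 15.1 at 30 min, and deletion MDJ1 lies at 512.3 and 529.3 on 2 arrays and at 189.3 and 215.9 on 2.

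Before the pulse the strains differed in 11 import genes, 7 higher and 4 lower in the deletion strain, against 18.3% higher and 8.18% lower among all genes. Under all 3 scalings 2 were higher, against 10.3%, and 4 lower, against 7.88%. With quantile normalization the split was 5 higher and 6 lower, against 13.4% and 13.2%, and with a common median 2 and 8, against 10.6% and 14%. The members' shares as deposited and with quantile normalization were close to those of all genes. The 11 fell to 3 without replicate 1 of the deletion strain, 1 of the arrays with a low actin ratio, to 5 without all 4 such arrays, to 5 without reference replicate 2 and to 1 when all 26 arrays were fitted in their 12 labelled groups. The share of all genes was not computed in these fits. Whether the calls of all genes dropped alike was not tested.

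PAM18 had signals of 35.7, 64.4 and 125.8 in the deletion strain and 128.7, 162.4 and 145.4 in the reference. The groups did not overlap, but deletion replicate 1, of low actin ratio, was the lowest and replicate 3 nearly reached the reference. PAM18 was 2.19-fold lower (log2 -1.13 ± 0.32 SE, adjusted p = 0.017). Without deletion replicate 1 the log2 difference was -0.69 (adjusted p = 0.099), and without all 4 arrays of low ratio it was -0.69 (adjusted p = 0.041). After the pulse PAM18 stayed at 18.5 to 93.1 on the deletion arrays and at 122.3 to 260.1 on the reference arrays, which did not overlap, and in neither strain was its change called. TIM44 was at 104.8, 117.7 and 137.0 in the deletion strain, below each reference array, and was 1.59-fold lower (log2 -0.67 ± 0.14 SE, adjusted p = 0.0025), with a log2 difference of -0.58 (adjusted p = 0.017) without deletion replicate 1. TIM23, at 148.3, 186.7 and 209.3 in the strain without SFP1, was 1.36-fold below the reference (adjusted p = 0.033), and its call ended without deletion replicate 1 (log2 -0.31, adjusted p = 0.17). HSP60, at 982.3, 975.5 and 1139.2 against 1189.2, 1505.3 and 1340.9, was 1.30-fold lower (adjusted p = 0.02), a call also lost without that array (adjusted p = 0.077).

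On the higher side, TOM22 was at 454.7, 449.4 and 419.7 in the deletion strain and 317.8, 272.2 and 321.7 in the reference. Every deletion array lay above every reference array, and TOM22 was 1.46-fold higher (log2 0.54 ± 0.10 SE, adjusted p = 0.0011), with 0.52 (adjusted p = 0.0066) without deletion replicate 1. ERV1 was at 488.3, 429.7 and 391.2 against 344.8, 301.2 and 287.5, 1.40-fold higher (adjusted p = 0.0023). A dimmer probe set of ERV1 gave 0.48 on the log2 scale with an adjusted p of 0.11. SAM50, at 243.3, 194.5 and 182.8 in the deletion strain, was 1.44-fold higher as deposited (adjusted p = 0.033), but not with a common median (adjusted p = 0.056) or without the 4 arrays of low ratio (adjusted p = 0.058). MIA40, which moved most after the pulse, did not differ before it beyond the spread, with 196.0, 192.4 and 195.0 in the deletion strain.

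**Figure D4:**
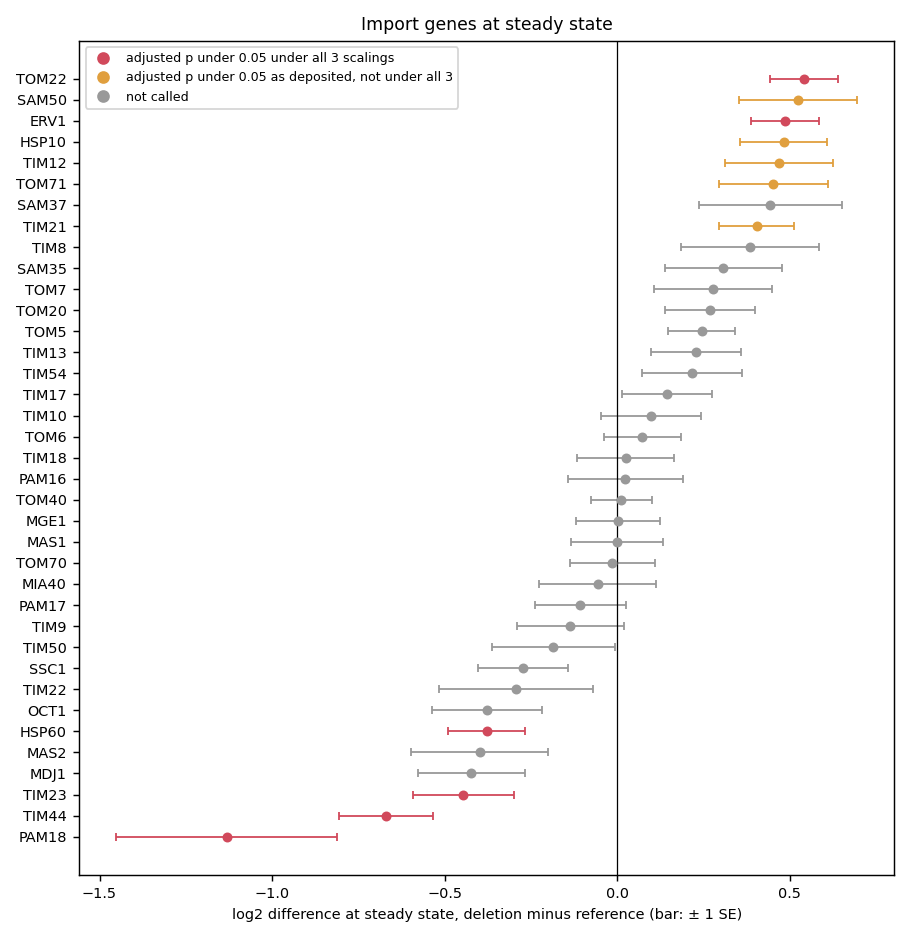
Log2 difference between the deletion and the reference strain at steady state (horizontal axis, ± 1 SE) for the 37 import genes, ordered by that difference. PAM18 at -1.13 and TIM44 at -0.67 lie lowest, and TOM22 at 0.54 lies highest.

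In the deletion strain too, no member was called at 5 min by limma (7 at an unadjusted p under 0.05, and 0 to 1 called over the alternatives), against 1.83% of all genes higher and 5.01% lower (1.81% and 2.31% under all 3 scalings). At 60 min 21 were lower and 1 higher, against 31.3% and 27%, and 12 and 1 under all 3 scalings, against 24.3% and 26.5%. At 120 min 17 were lower and 1 higher, against 22.2% and 19.9%, and 13 and 1 under all 3 scalings, against 19.1% and 19.4%. Quantile normalization gave 12 lower and 4 higher at 60 min, against 25.3% and 40.4%, and 14 and 4 at 120 min, against 20.1% and 30.8%. A common median gave 13 and 4 at 60 min, against 25.7% and 39.2%, and 13 and 3 at 120 min, against 19.3% and 30.4%. The count of 18 at 120 min was 9 without deletion replicate 2 of that time, a fit for which the share of all genes was not computed. Lower in both strains at 60 min under all 3 scalings were 11 members, against 20.6% of all genes: HSP10, MAS1, MDJ1, MIA40, OCT1, PAM17, SAM50, TIM9, TOM22, TOM40 and TOM70. At 120 min they were 8, against 15.8%: HSP10, MAS1, MDJ1, MIA40, OCT1, PAM17, TIM9 and TOM70.

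MIA40 led this strain as well, at 67.0 and 47.9 at 60 min and 72.7 and 80.9 at 120 min, with no array near the steady-state values. It was 3.43-fold lower at 60 min (log2 -1.78 ± 0.19 SE, adjusted p = 3.6e-07) and 2.54-fold at 120 min (adjusted p = 1.8e-05). PAM17, at 109.7 and 95.4 at 60 min against 257.5, 265.4 and 213.9, was 2.39-fold lower (adjusted p = 1.3e-06). TIM9 was at 79.8 and 68.9 at 60 min against 185.6, 164.9 and 165.6, 2.32-fold lower (adjusted p = 1.3e-05), and 2.21-fold lower at 120 min (adjusted p = 4.2e-05). TIM21 was at 143.3 and 151.8 at 120 min against 338.2, 297.5 and 257.3, 2.01-fold lower (adjusted p = 3.4e-06). These calls held under all 3 scalings, and in each the 2 groups did not overlap.

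The members called higher were inner membrane and motor genes. TIM17, a channel subunit of TIM23, was at 761.8 and 563.8 at 60 min against 451.6, 537.2 and 520.2, 1.31-fold higher (adjusted p = 0.031). Replicate 1 at 60 min, of low actin ratio, was far above the rest, and without the 4 arrays of low ratio the log2 change was 0.09 (adjusted p = 0.67). TIM44 was at 164.1 and 167.6 at 120 min against 104.8, 117.7 and 137.0, 1.39-fold higher (log2 0.48, adjusted p = 0.018). That call ended without deletion replicate 1 at steady state or either array of 120 min.

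At 10 and 30 min the 4 deletion arrays together had 25 members lower and 3 higher than steady state, against 43.8% and 15.4% of all genes, and 13 and 3 under all 3 scalings, against 23.2% and 14.2%. Quantile normalization gave 17 lower and 6 higher, against 27.8% and 30.9%, and a common median 13 and 9, against 23.8% and 39.1%. Without the 4 arrays of low actin ratio, which leaves only the 2 of these 4 with low HXT1 signal, 15 were lower and 3 higher. The share of all genes was not computed for that fit, so these counts are not read as a change of the members. The 3 higher were chaperone genes. MDJ1 was at 512.3 and 189.3 on the arrays labelled 10 min and at 215.9 and 529.3 on those labelled 30 min, against 122.8, 98.6 and 140.8 at steady state. All 4 arrays were above steady state, 2 of them far above, and the mean was 2.72-fold higher (log2 1.44 ± 0.14 SE, adjusted p = 2.1e-07). HSP60 was at 1607.2, 2164.4, 1813.1 and 1739.4 on the same 4 arrays against 982.3, 975.5 and 1139.2, 1.77-fold higher (adjusted p = 3.1e-06). SSC1 was at 295.1, 241.5, 259.1 and 288.7 against 161.2, 164.6 and 217.3, 1.51-fold higher (adjusted p = 0.0005). All 4 arrays of each gene lay above its steady-state arrays, and the 3 calls remained without the arrays of low ratio, at log2 changes of 2.14, 0.67 and 0.63.

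Among the members lower on these 4 arrays, the means hid differences between arrays. PAM17 was at 128.2 and 59.4 at 10 min and 50.9 and 159.2 at 30 min, and MIA40 at 139.6 and 38.3, and 60.9 and 101.6. Replicate 1 at 10 min and replicate 2 at 30 min were the higher pair for both genes, as for TOM40, TIM9 and TOM70. PAM17 was 2.76-fold lower on the mean of 4 (adjusted p = 2.6e-08) and MIA40 2.56-fold (adjusted p = 1.2e-06). TOM6 was at 959.3 and 15.7 at 10 min and 830.1 and 1152.4 at 30 min against 1021.5, 1047.5 and 1091.7, so its 3.04-fold lower mean (adjusted p = 9.2e-10) came from 1 array, replicate 2 at 10 min. Without the 4 arrays of low ratio, of which it is 1, the log2 change was -0.02 (adjusted p = 0.91). Over the log2 changes of the 40 genes found by the rule, replicate 1 at 10 min correlated at r = 0.748 with replicate 2 at 30 min and at 0.39 with its own replicate, a description over genes that share the same steady-state mean.

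Whether the strains responded differently was tested as the deletion change minus the reference change. No member was called at 5 min by limma (1 at an unadjusted p under 0.05, and none over the arrays left out in turn), where 0.205% of all genes were called higher and 0.317% lower (0.0745% and 0.224% under all 3 scalings). At 10 and 30 min together 7 members were higher and 3 lower, against 22.3% and 15% of all genes, and 5 and 2 under all 3 scalings, against 16.6% and 13.4%. With a common median the split was 5 and 5, against 19.5% and 17.7%, and without the 4 arrays of low actin ratio it was 14 and 3. The last split rests on the 2 deletion arrays of low HXT1 signal at these times. At 60 min 8 were higher and none lower (1 lower at an unadjusted p under 0.05), against 18.2% and 5.25%, and 2 and 0 under all 3 scalings, against 5.68% and 3.78%. Quantile normalization gave 6 higher and 1 lower, against 9.15% and 7.82%, and a common median 3 and 2, against 6.87% and 14.1%. Without the 4 arrays of low ratio 3 members were called at 60 min. At 120 min 4 were higher and 1 lower, against 15.2% and 4.34%, and 0 and 1 under all 3 scalings, against 5.59% and 3.05%. Quantile normalization gave 1 higher and 5 lower, against 7.47% and 7.38%, and a common median 1 and 6, against 6.89% and 11.4%. When all 26 arrays were fitted in their 12 labelled groups, 4 members remained called at 10 and 30 min, 1 at 60 min and 0 at 120 min. For this fit and the fit without the 4 arrays of low ratio, the share of all genes was not computed. Their counts are therefore not read as results about the members.

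At 10 and 30 min the largest positive differences were those of 3 chaperone genes. The interaction of MDJ1 was 4-fold (log2 2.00 ± 0.20 SE, adjusted p = 2e-06), from reference arrays of 227.9, 213.1, 59.2 and 48.7 and deletion arrays of 512.3, 189.3, 215.9 and 529.3. It was 2.70 on the log2 scale without the arrays of low ratio. Such values rest on the 2 deletion arrays of low HXT1 signal, set against reference arrays of both times. SSC1 differed by 2.33-fold (log2 1.22, adjusted p = 5.2e-05), with all 4 deletion arrays above their steady state and the reference arrays at 199.5, 204.3, 102.2 and 92.6. HSP60 differed by 2.00-fold (log2 1.00, adjusted p = 6.9e-05), SAM50 by 1.85-fold (log2 0.88, adjusted p = 0.0058) and MIA40 by 1.73-fold (log2 0.79, adjusted p = 0.011, and 1.44 without the arrays of low ratio). At 60 min MDJ1 was at 65.9 and 56.8 in the deletion strain and 26.3 and 40.0 in the reference, a difference in change of 2.53-fold (log2 1.34 ± 0.24 SE, adjusted p = 0.00098), and MAS1, at 112.4 and 99.4 against 52.6 and 60.1, one of 1.88-fold (adjusted p = 0.0057), both under all 3 scalings. MIA40 (log2 1.11, adjusted p = 0.0072) and OCT1 (log2 1.04, adjusted p = 0.0074) lay between them at 60 min as deposited, but MIA40 was lost with quantile normalization and OCT1 with a common median, and both without the 4 arrays of low ratio.

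As deposited, differences in the other direction were fewer. A common median gave 5 members each way at 10 and 30 min, and at 120 min both other scalings called more members lower than higher. The interaction of TOM6 at 10 and 30 min, -1.01 on the log2 scale (adjusted p = 6.6e-05), rested on 1 array: without replicate 2 at 10 min it was 0.48 (adjusted p = 0.019). TIM23 was at -0.61 (adjusted p = 0.02), a call lost with quantile normalization (adjusted p = 0.07) and without the 4 arrays of low ratio. TOM20 was at -0.47 (adjusted p = 0.042) and lost its call without the 4 arrays of low ratio (-0.33, adjusted p = 0.087). TIM21 at 120 min, at 143.3 and 151.8 in the deletion strain and 176.0 and 156.5 in the reference, differed by -0.57 (adjusted p = 0.027), which held under all 3 scalings but ended without any 1 of 5 arrays. At 120 min MDJ1 still differed by 1.04 (adjusted p = 0.0068), a call lost with quantile normalization (0.70, adjusted p = 0.055). No inner membrane gene was called at 60 min, where their interactions ran from -0.48 to 0.53.

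**Figure D5:**
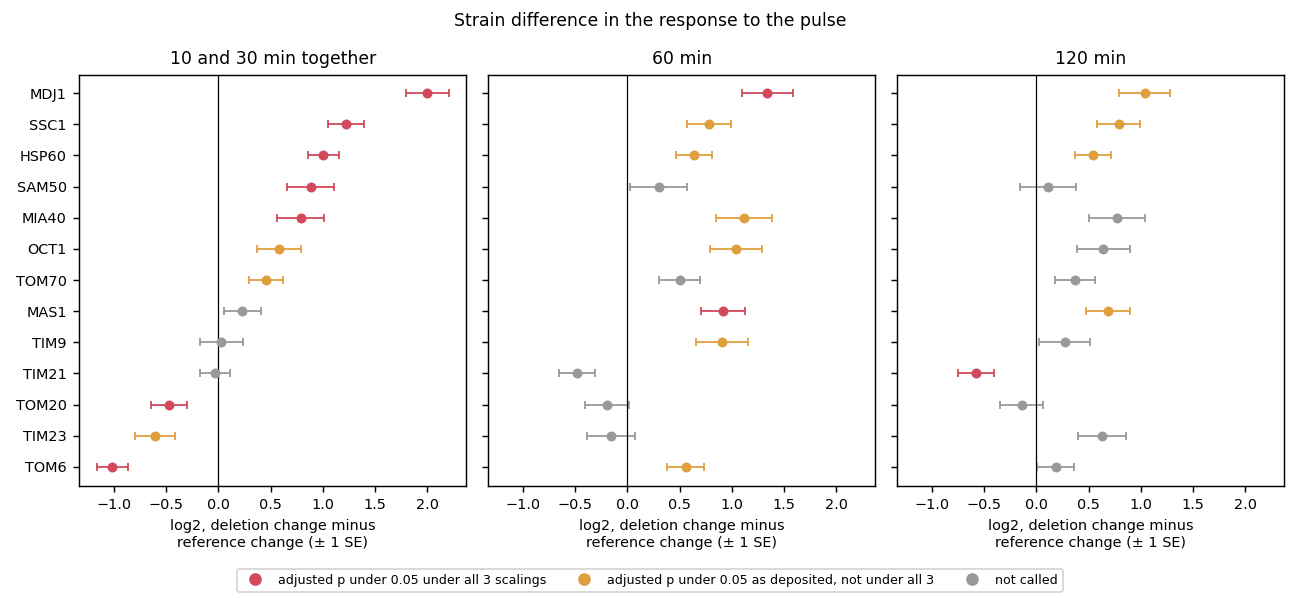
Deletion change minus reference change on the log2 scale (horizontal axis, ± 1 SE) for the 13 import genes called in any of the 3 comparisons, in panels for 10 and 30 min together, 60 min and 120 min. Red marks passed the threshold under all 3 scalings, orange ones as deposited but not under all 3, and grey ones did not pass. MDJ1 lies at 2.00, 1.34 and 1.04, and TOM6 at -1.01 in the first panel.

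Of the 3 genes that share only a symbol with the machinery, 2 fell further than most of it at 30 min. TIM11 encodes subunit e of the ATP synthase. Its signal was 1659.8, 2119.6 and 1672.5 at reference steady state and between 277.3 and 349.1 on the 6 arrays from 30 min on, 5.54-fold lower at 30 min (adjusted p = 3e-12). In the deletion strain the 4 arrays at 10 and 30 min lay far apart, at 1381.2 and 2178.8 on replicate 1 of 10 min and replicate 2 of 30 min and at 215.7 and 251.3 on the other 2. PAM1, which encodes a cytoplasmic protein, was at 222.0, 276.0 and 252.1 at reference steady state, 37.1 and 45.8 at 30 min and 233.6 and 194.5 at 120 min, 6.04-fold lower at 30 min (adjusted p = 1.6e-08) and 5.17-fold higher at 120 min than at 30 min (adjusted p = 6e-07). TOM1 encodes a ubiquitin ligase and is read by several probe sets. It was 1.74-fold lower at 30 min as deposited (adjusted p = 9.8e-05), with a log2 change of 0.07 under a common median.

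Other mitochondrial genes gave a frame for these changes. Of 31 further genes of import, sorting and protein quality control, 24 were lower and none higher in the reference strain at 30 min, with a median of -1.60. Among all genes 53% were lower and 22.6% higher. Among the 31, OM14 and OM45 fell furthest, with log2 changes of -5.68 and -5.58 (adjusted p = 3.1e-13 and 6e-15). The prohibitin genes PHB1 and PHB2 changed by -2.62 and -2.73 (adjusted p = 1.5e-10 and 2e-13), and IMP1, which encodes an inner membrane peptidase, by -3.01 (adjusted p = 4.6e-10). All 67 mitochondrial ribosome genes tested were lower (median -1.39), and so were all 33 genes listed for ATP synthase and the respiratory chain, at a median of -4.05. As deposited, the import members, with a median of -0.88, thus lay between these lists and all genes, whose median was -0.53. No values of these lists are given under the other scalings. There the members' median was -0.54 with quantile normalization and -0.01 with a common median, against 0.13 and 0.34 for all genes. At 10 and 30 min the strain difference was called positive for 13 of the 31, 23 of the 33 and 9 of the 67, against 22.3% of all genes. It was called negative for 1 mitochondrial ribosome gene and for none of the other 2 lists by limma, against 15% of all genes.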

How the data were processed

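RNA of 26 chemostat samples was hybridised to 1-colour Affymetrix yeast arrays. The authors deposited 1 intensity per probe set, on a linear scale, made with GCOS per the submitters' processing notes (version and settings not given in the sources used here). From the values, trimmed means of 149.9 to 150.0 on every array show that the deposited intensities were already scaled, so they were not normalized again. A platform annotation named the genes: 6504 of 9335 probe sets had 1 gene, 328 several and 2443 none, with 60 controls, and for the 315 genes with several probe sets the one of highest mean log2 signal was used. Signals were floored at 12 and taken to log2, a gene had to exceed the floor on at least 2 arrays, which removed 287 of 5656, and 5369 were tested with limma 3.58.1 in R 4.3.3, with an intensity trend and Benjamini-Hochberg adjustment within each comparison. Fold changes are therefore on the scale of floored signals, and a fold against arrays under the floor is a lower bound.

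One fit held all 26 arrays and left 12 residual degrees of freedom. The 4 deletion arrays labelled 10 and 30 min had a coefficient each, so they added nothing to the estimate of the spread and are assumed to vary like the others. The number of arrays, 2 or 3 a group, limits the precision. Genes described in full are those with the largest called changes each way in each comparison (up to 4 in the reference strain, up to 3 otherwise, and the largest each way for the interactions), and smallest changes where no member was called. Other members named with values were chosen after their values were seen. The members and lists were chosen with earlier results of these data known. Alternatives were 2 other scalings, the floor, the filter, the trend, the probe set, 12 labelled groups, leaving out each array or the 3 arrays with another code prefix, a replicate block and, added after seeing the data, leaving out the 4 arrays of low actin ratio. The test was checked on simulated data. Sequences and coordinates were not used here.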

Additional observations from a re-analysis of the deposited data

Results flagged for a closer look

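The difference between the strains' responses passed its own test for 26 combinations of a gene found by the rule and a time, all given here as the deletion change minus the reference change on the log2 scale, with limma's adjusted p under 0.05 as deposited. Among all genes 22.3% were called positive and 15% negative at 10 and 30 min, 18.2% and 5.25% at 60 min and 15.2% and 4.34% at 120 min, so most of the members' counts lie near or below these shares. At 10 and 30 min together it was positive for MDJ1 (2.00), SSC1 (1.22), PAM1 (1.16), HSP60 (1.00), SAM50 (0.88), MIA40 (0.79), OCT1 (0.58), TOM1 (0.50) and TOM70 (0.45). It was negative for TOM6 (-1.01), TIM23 (-0.61) and TOM20 (-0.47). These values rest on the mean of the 4 deletion arrays labelled 10 and 30 min, which disagree with their own replicates, and the part of that disagreement in each value was not tested.

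At 60 min the difference was positive for MDJ1 (1.34), MIA40 (1.11), OCT1 (1.04), MAS1 (0.91), TIM9 (0.90), SSC1 (0.78), HSP60 (0.64) and TOM6 (0.56) and negative for TIM11 (-0.48). At 120 min it was positive for MDJ1 (1.04), SSC1 (0.79), MAS1 (0.68) and HSP60 (0.54) and negative for TIM21 (-0.57). MDJ1, SSC1 and HSP60, which encode matrix chaperones, were called at each of these times as deposited. HSP10 and MGE1, which encode the partners of Hsp60 and Ssc1, were called at none of them. Under all 3 scalings only MDJ1 and MAS1 stayed among the positive import members at 60 min and none at 120 min, and with all 26 arrays in their 12 labelled groups no import member was called at 120 min (limma, 13 at an unadjusted p under 0.05 as deposited).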

How the results depend on the processing

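Precision is limited by 2 or 3 arrays a group and by members near the floor (MAS2, OCT1, TOM71). Of 218 called results of single genes, 8246 values under the alternatives held 7680 on the same side of the threshold, 535 that kept the direction without passing and 31 that turned. Of 382 uncalled results, 14434 values held 14113 on the same side, 289 that passed and 32 that turned. The other scalings turned most of them. The common median does so by construction, since it shifts all genes of an array together. For quantile normalization and the other alternatives the cause was not tested.

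At 30 min in the reference strain the common median turned TIM21 (0.00), TOM1 (0.07), TIM10 (0.13), HSP10 (0.14), MAS2 (0.22), TOM7 (0.31), PAM16 (0.36), HSP60 (0.36), TIM50 (0.44), TIM23 (0.49), TIM44 (0.55), MGE1 (0.58), TOM20 (0.58), TIM18 (0.58), TIM17 (0.61) and TIM54 (0.72), and quantile normalization turned TOM7 (0.04), TIM23 (0.07), MGE1 (0.32), MAS2 (0.45), PAM16 (0.51) and TIM54 (0.56). At 60 min the common median turned ERV1 (0.08), TOM5 (0.10), TIM10 (0.19), TIM21 (0.29), TIM18 (0.37), TOM1 (0.41), TIM17 (0.45), MGE1 (0.45), TOM20 (0.49), TIM44 (0.52) and TIM23 (0.57), and quantile normalization TIM21 (0.11), PAM16 (0.14), MAS2 (0.20), TOM20 (0.26) and MGE1 (0.33). At 120 min the common median turned TOM40 (0.00), TIM18 (0.01), TIM21 (0.02), TIM10 (0.05), ERV1 (0.32), TIM17 (0.33), TOM5 (0.36), TIM13 (0.40) and TOM20 (0.44), and quantile normalization TOM20 (0.28). From 30 to 120 min the common median turned TIM11 (-0.40), MGE1 (-0.39) and MAS1 (-0.34), and a floor of 48 set OCT1 to 0.00. On the deletion arrays at 10 and 30 min the common median turned TOM5 (0.04), TOM70 (0.07), TIM54 (0.29) and TIM12 (0.37), and leaving out the 4 arrays of low actin ratio turned TOM70 (0.08). That alternative also turned the interactions at 10 and 30 min of TIM21 (0.45), TOM40 (0.45), TOM6 (0.57) and TIM11 (1.25), and TOM6 turned too without the 3 arrays of another code prefix (0.35) or deletion replicate 2 at 10 min (0.48), with a range of -1.59 to 0.48 over the single arrays left out.

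For alternatives other than the 2 scalings the share of all genes was not computed, so such counts are not read as results about the members. Counts of the 37 members called moved by over 1.5 times in these cases. With all 26 arrays in their 12 labelled groups the count was 1 for the strains at steady state, 4 at 10 min and 13 at 120 min in the reference strain, 8 at 120 min in the deletion strain, and 4, 1 and 0 for the interactions at 10 and 30, 60 and 120 min. Without the 4 arrays of low actin ratio it was 5 at steady state, 1 at 5 min in each strain, 18 for the deletion strain at 10 and 30 min, and 17 and 3 for the interactions at 10 and 30 and at 60 min. The common median gave 7 at 10 min in the reference strain and 5 for the interaction at 60 min. At 5 min, 1 was called without the 3 arrays of another code prefix in each strain, and 1 in the deletion strain without the intensity trend or with the replicate block. The replicate block moved no other count of calls past that size. Over the single arrays left out, the counts ran from 3 to 13 for the strains at steady state. In the reference strain they ran from 0 to 1 at 5 min, 6 to 12 at 10 min, 24 to 32 at 30 min, 22 to 26 at 60 min, 16 to 22 at 120 min and 12 to 17 from 30 to 120 min. In the deletion strain they ran from 0 to 1 at 5 min, 24 to 30 at 10 and 30 min, 19 to 23 at 60 min and 9 to 22 at 120 min. For the interactions they were 0 at 5 min, 7 to 12 at 10 and 30 min, 5 to 12 at 60 min and 1 to 7 at 120 min. The interaction at 120 min fell to 1 without deletion replicate 1 of that time, to 2 without reference replicate 1 of that time, reference replicate 3 or deletion replicate 2 at steady state, and to 3 without deletion replicate 1 at steady state. The interaction at 60 min was 5 without reference replicate 1 of that time. The count at steady state was 5 without reference replicate 2, 7 without reference replicate 3 or deletion replicate 2 and 3 without deletion replicate 1, and at 10 min it was 7 without reference replicate 2 at steady state and 6 without replicate 2 of that time.

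The labels do not say what shared replicate numbers mean. The correlation of deviations between same-numbered arrays of 2 groups ran from -0.251 to 0.334. All 10 pairs among the reference groups after the pulse were positive (0.07 to 0.272), 7 of them over 0.1, a hint from the data, not the design. Since not every pair was over 0.1 the numbers were not taken as pairing, and the replicate block had a consensus correlation of 0.0753.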
